A study of Mus musculus with 15 samples.

Results

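A set of 100 genes, out of 44788 gene symbols measured in the developing mouse stomach, was high shortly before birth and lower both earlier in gestation and in the first week of life. The genes were chosen by their values. FPKM (fragments per kilobase of transcript, scaled to the number of mapped fragments) was summed per gene symbol and taken as log2(FPKM + 1), and a gene's score was its mean at E16.5 and E17.5 minus the larger of its means over E12.5, E13.5 and E14.5 and over D3, D5 and W1. Among 12440 symbols that reached 5 FPKM at any age, the 100 highest scores were kept. The high level at E16.5 and E17.5 against these 6 timepoints is therefore how the genes were found, and it is described below without a test.

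The study sequenced RNA of stomachs from C57BL/6 mice at 15 timepoints. Embryos were taken daily from E12.5 to E18.5, and born mice on days D1, D3 and D5 and in weeks W1, W2, W3, W6 and W8, with no treatment or mutation. Each timepoint is 1 transcriptome, so a single timepoint has no replicate error, and the labels do not mention pooling. The reporting form of the study describes several embryo stomachs combined per replicate up to E17.5 and a single stomach after E18.5, in replicates, without saying whether this holds for the transcriptomes. Labels call the tissue stomach, whereas the published methods describe the RNA as taken from liver; gastric gene lists were at a summed 163080 FPKM (chief cells) and 8104 FPKM (parietal cells) at W8, against 2246 FPKM for hepatocyte genes.

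The mouse stomach has a glandular part and a forestomach, which is lined by a stratified squamous epithelium like that of the oesophagus and skin. In such an epithelium, basal cells that carry keratins 5 and 15 and the transcription factor p63 divide, and their daughters move outwards, switch to other keratins, build a cornified envelope of cross-linked proteins under the membrane and are finally shed. Small proline-rich proteins are strands of that envelope, transglutaminases cross-link it, and kallikreins cut the junctions that hold the outermost cells. In RNA from a whole organ, fewer cells of a type and less RNA per cell cannot be told apart.

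Many of the genes have known roles in this programme. By the role of their products, a sorting made with the values in view, the 100 comprised 8 keratins, 13 genes of the cornified envelope and skin barrier, 6 of cell junctions and the cell surface, 11 proteases and protease inhibitors, 7 S100 proteins and annexins, 5 regulators of transcription, 3 gasdermins and 2 uroplakins. A further 25 genes had other roles. The remaining 20 were of a different kind, namely 9 lens crystallins and 11 unnamed or small RNA loci, and most values below are therefore given for the other 80 genes. Of the squamous forestomach marker list, 11 of 23 genes were among the 100, and of the cornified envelope list, 8 of 44 tested. The granulocyte list had 2 of 12 (S100a9 and Ltf), the antimicrobial list 1 of 16 (Ltf again) and the skin lipid barrier list 1 of 15 (Alox12b). The other 26 of 31 cell type and pathway lists, including those of glandular stomach cells, muscle, nerves and blood vessels, had none. The envelope list as a whole summed to 4097 FPKM at E16.5, 9880 at E17.5, 19383 at D1 and 11339 at W3.

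**Figure D1:**
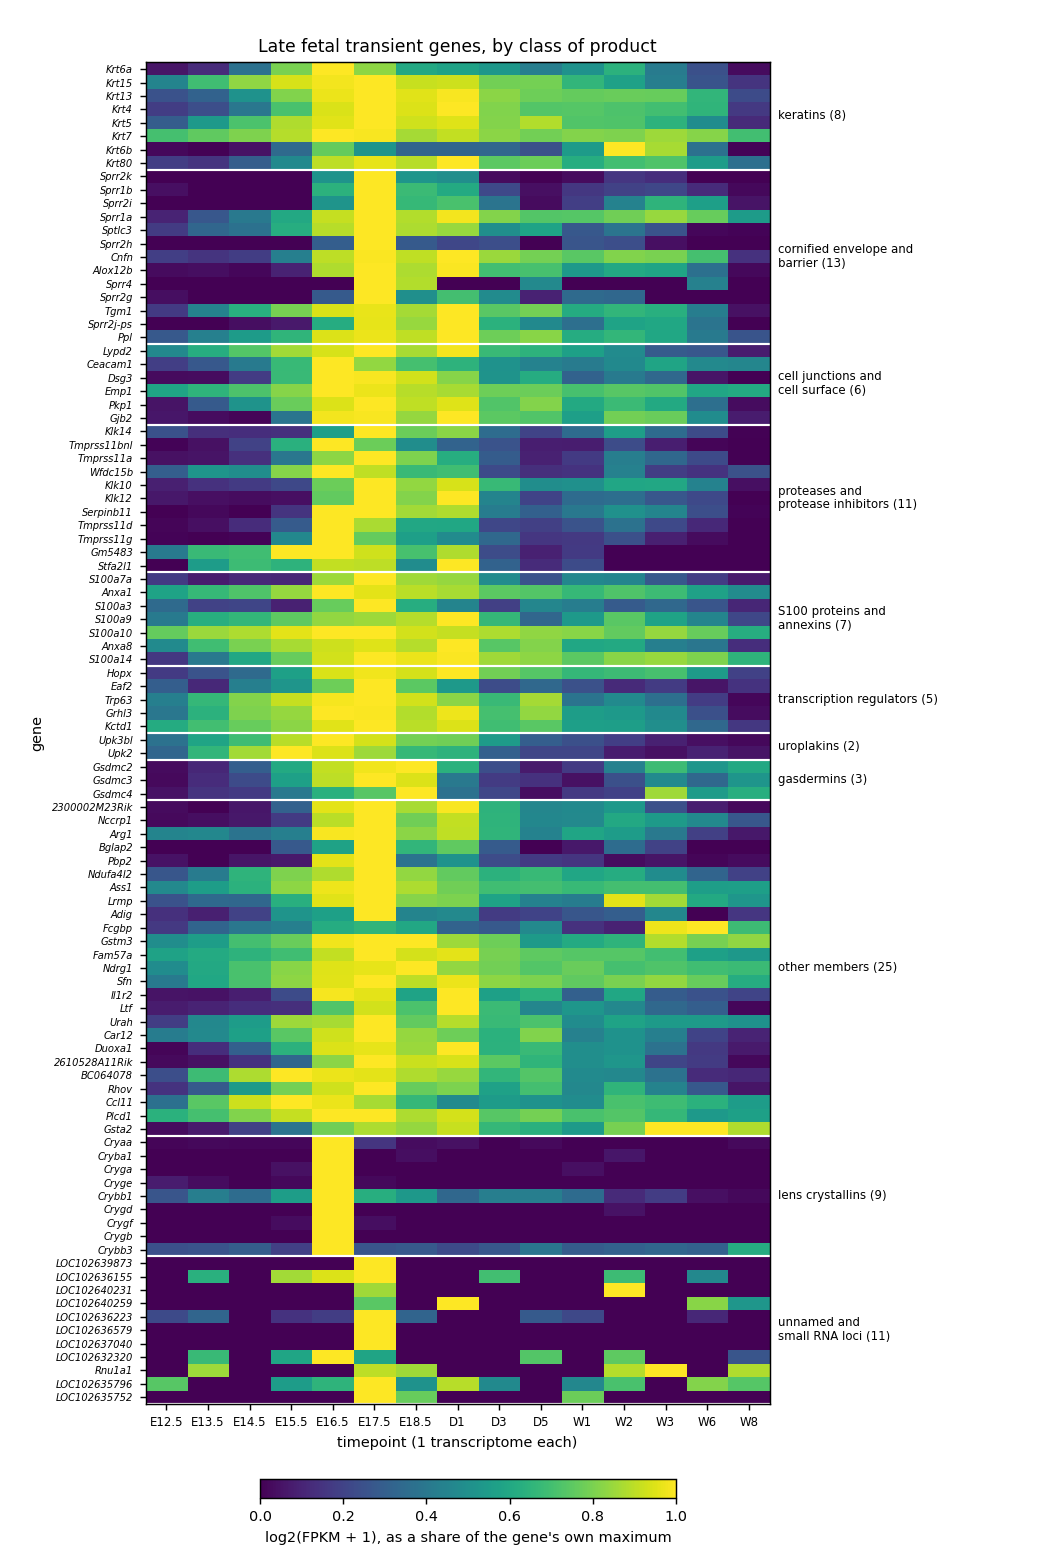
Level of each of the 100 genes (rows, grouped by class of product) at the 15 timepoints (columns, 1 transcriptome each), as log2(FPKM + 1) divided by the gene's own maximum. Of the 100 genes, 23 peak at E16.5, 50 at E17.5 and 14 at D1, and the lens crystallins stand out at E16.5 alone.

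The highest value of a gene lay at E17.5 for 50 of the 100 and at E16.5 for 23. It lay at D1 for 14, at E15.5 and at E18.5 for 4 each, at W2 and W3 for 2 each and at W6 for 1. The 23 at E16.5 include the 9 lens crystallins, and the 50 at E17.5 include 7 unnamed or small RNA loci. Together the 100 genes made up 0.0625% of all FPKM at E12.5, 1.81% at E16.5, 2.33% at E17.5, 1.79% at D1 and 0.0627% at W8. The deposited confidence bounds, which cover counting error only and are 0 for a value of 0, separated both late fetal values from all 6 compared values in 66 of the 100 genes and at least 1 of the 2 values in 87. These values chose the genes, so separation was favoured in advance and the counts describe the choice only. The share over all genes was not counted. Relative depth, read from single fragments, ranged from 0.702 at E16.5, the lowest, to 1.17 at W6 of that at E12.5.

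The small proline-rich genes had some of the highest scores. Sprr2k was listed at 0 FPKM at E12.5, E13.5, E14.5 and E15.5, at 6.82 at E16.5, 53.0 at E17.5, 6.96 at E18.5, 6.13 at D1, 0.125 at D3, 0 at D5, 0.124 at W1, 0.875 at W2, 0.695 at W3 and 0 at W6 and W8. Sprr1b was at 0.171 FPKM at E12.5, 0 at E13.5, E14.5 and E15.5, 9.96 at E16.5, 40.6 at E17.5, 11.8 at E18.5, 8.84 at D1, 1.26 at D3, 0.159 at D5, 0.835 at W1, 1.09 at W2, 1.22 at W3, 0.584 at W6 and 0.0756 at W8. Both genes encode envelope precursors, and in both E17.5 stood far above every other transcriptome, including its neighbours E16.5 and E18.5. Sprr2i was at 0 FPKM from E12.5 to E15.5, at 6.47 at E16.5, 48.2 at E17.5, 12.54 at E18.5, 15.2 at D1, 3.46 at D3, 0.125 at D5, 1.05 at W1, 4.65 at W2, 11.5 at W3, 8.03 at W6 and 0.235 at W8. Unlike the first pair, Sprr2i was again at levels near those of E18.5 in the weaned stomach at W3. The same single high day was seen in Sprr2h (1.18 FPKM at E16.5, 12.4 at E17.5 and 1.09 at E18.5) and Sprr2g (1.43, 21.5 and 3.72 FPKM). Not all Sprr genes had it. Sprr1a was at 1118 FPKM at E17.5, 999 at D1 and 380 at W3, and Sprr2j-ps was highest at D1 (27.4 FPKM). The deposited bounds for Sprr2k were 4.55 to 9.08 FPKM at E16.5 and 47.4 to 58.6 at E17.5. Sprr2 genes are near-identical copies, and how the authors' counting divided shared reads between them is not given in the sources used here.

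Sprr2k, Sprr1b and Krt13 all peaked at E17.5, but at E15.5 Krt13 was at 1016 FPKM and the other genes were listed at 0. The sequences before their start sites are shown. Capitals mark an AP-1 type motif (TGANTCA, which reads the same on both strands) and the TATA box letters TATAAA. Each sequence is the stretch of 250 bases before a RefSeq start site in GRCm38.p6, written from 5′ to 3′ on the gene's strand. Sprr2k lies on the plus strand (chr3:92432332-92432581), Sprr1b on the minus strand (chr3:92438780-92439029) and Krt13 on the minus strand (chr11:100121567-100121816).
Sprr2k: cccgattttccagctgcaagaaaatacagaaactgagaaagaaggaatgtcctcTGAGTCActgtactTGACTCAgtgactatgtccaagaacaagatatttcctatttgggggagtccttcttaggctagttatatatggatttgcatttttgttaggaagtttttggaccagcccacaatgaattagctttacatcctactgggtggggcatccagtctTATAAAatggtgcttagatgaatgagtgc
Sprr1b: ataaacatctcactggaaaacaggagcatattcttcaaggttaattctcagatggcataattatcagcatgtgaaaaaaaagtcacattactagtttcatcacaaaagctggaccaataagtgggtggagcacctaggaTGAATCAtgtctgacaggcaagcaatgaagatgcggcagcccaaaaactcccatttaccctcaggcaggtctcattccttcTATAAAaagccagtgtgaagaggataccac
Krt13: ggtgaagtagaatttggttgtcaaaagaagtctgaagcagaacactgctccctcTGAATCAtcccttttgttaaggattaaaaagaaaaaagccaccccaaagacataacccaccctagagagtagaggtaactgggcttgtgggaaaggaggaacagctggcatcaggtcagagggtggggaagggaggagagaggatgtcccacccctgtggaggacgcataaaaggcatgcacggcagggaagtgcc
TATAAA began at -29 before the start of Sprr2k and at -30 before that of Sprr1b, and AP-1 type motifs at -196 and -182 in Sprr2k, -111 in Sprr1b and -196 in Krt13. The letters TATAAA were not in the Krt13 window.

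RefSeq promoter windows, from 250 bases before to 50 after the start, were matched for 60 of the 100 genes and for 8953 of all symbols that reached 5 FPKM. TGANTCA was present in 10 of the 60 windows (16.7%) and in 4.95% of all windows. TATAAA, on either strand, was present in 12 (20%) against 7.51%. AACCNGTT, a Grainyhead-like motif, was in 4 (6.67%) against 1.89%, and AGAACA, part of the site read by the glucocorticoid receptor, in 14 (23.3%) against 11.7%. GATAAG, read by GATA factors, was in 3 (5%) against 5.03%. The G-rich motif GGGCGG of Sp and Klf factors was in 16 of the windows (26.7%) and in 65.6% of all windows, a difference in the opposite direction. These are shares of letters in windows and not binding sites.

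The genes lay close to each other in the genome more often than other genes lay close to them. Of the 100, 38 had another of the 100 within 100 kb, against 2.07% of 12305 other symbols that reached 5 FPKM. They formed 12 groups of neighbours. The largest, on chr3 (GRCm38, 92373915 to 92500493), held 8 genes of the epidermal differentiation complex, from Sprr2g to Sprr4. A further group of 4 S100 genes lay on chr3 between 90526849 and 90695721. Other groups held 4 gamma crystallins on chromosome 1 (Cryga, Crygb, Crygd and Cryge), 3 type II keratins on chromosome 15 (Krt5, Krt6a and Krt6b), 3 gasdermins on chromosome 15, 3 kallikreins on chromosome 7 and 3 transmembrane serine proteases of the Tmprss11 family on chromosome 5. Many of these neighbours are copies of one ancestral gene.

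Keratins had the highest levels of all. Krt13, a keratin of the upper layers of non-cornified squamous epithelium, was at 7.47 FPKM at E12.5, 13.8 at E13.5, 76.8 at E14.5, 1016 at E15.5, 3976 at E16.5, 5133 at E17.5, 3510.1 at E18.5, 4703 at D1, 1179.6 at D3, 771 at D5, 679.9 at W1, 730.4 at W2, 699 at W3, 273 at W6 and 5.96 at W8. It was thus at its highest at E17.5 and D1 and 1 transcriptome, W8, stood far below the other postnatal ones. Krt6a, a keratin of rapidly renewing epithelia, was at 0.391 FPKM at E12.5, 1.02 at E13.5, 7.53 at E14.5, 97.2 at E15.5, 315 at E16.5, 117 at E17.5, 31.2 at E18.5, 26.7 at D1, 20.2 at D3, 10.8 at D5, 17.6 at W1, 39.4 at W2, 9.98 at W3, 3.04 at W6 and 0.182 at W8. Krt6a peaked a day before Krt13. Its neighbour Krt6b peaked at E16.5 among the fetal samples (14.2 FPKM) but was higher at W2 (34.0 FPKM) and W3 (21.1 FPKM). Krt15, a basal keratin, increased over every fetal day from 23.05 FPKM at E12.5 through 127, 343, 738 and 992 to 1117 at E17.5, and was at 625 at E18.5, 659 at D1, 251 at D3, 259 at D5, 100.5 at W1, 54.4 at W2, 19.2 at W3, 5.11 at W6 and 1.87 at W8. Krt15 was lower at each later age than at the one before it from W1 onwards.

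The day of the largest step differed between genes, and it is not the day on which a gene began to increase. The largest single-day step before E17.5, on the log2(FPKM + 1) scale, lay between E15.5 and E16.5 in 49 genes, between E12.5 and E13.5 in 17, between E14.5 and E15.5 in 16, between E16.5 and E17.5 in 14 and between E13.5 and E14.5 in 4. The 49 include the 9 lens crystallins. Unnamed or small RNA loci were 8 of the 14, 2 of the 16 and 1 of the 17. Shares over all genes were not counted. Genes of the basal layer belonged to the early kind. Trp63, which encodes p63, went from 2.89 FPKM at E12.5 to 7.09 at E13.5, 11.96 at E14.5, 16.6 at E15.5, 21.1 at E16.5 and 22.1 at E17.5, and Krt5 from 6.56 to 39.0, 136, 420.2, 703 and 964 FPKM on the same days. Grhl3, a Grainyhead-like regulator of barrier formation, stepped most between E12.5 and E13.5 too. Of the 13 envelope and barrier genes, 9 had their largest step between E15.5 and E16.5 and 3 between E16.5 and E17.5, and Tgm1, a transglutaminase, had it at the earliest interval. All 3 gasdermins had theirs between E14.5 and E15.5.

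**Figure D2:**
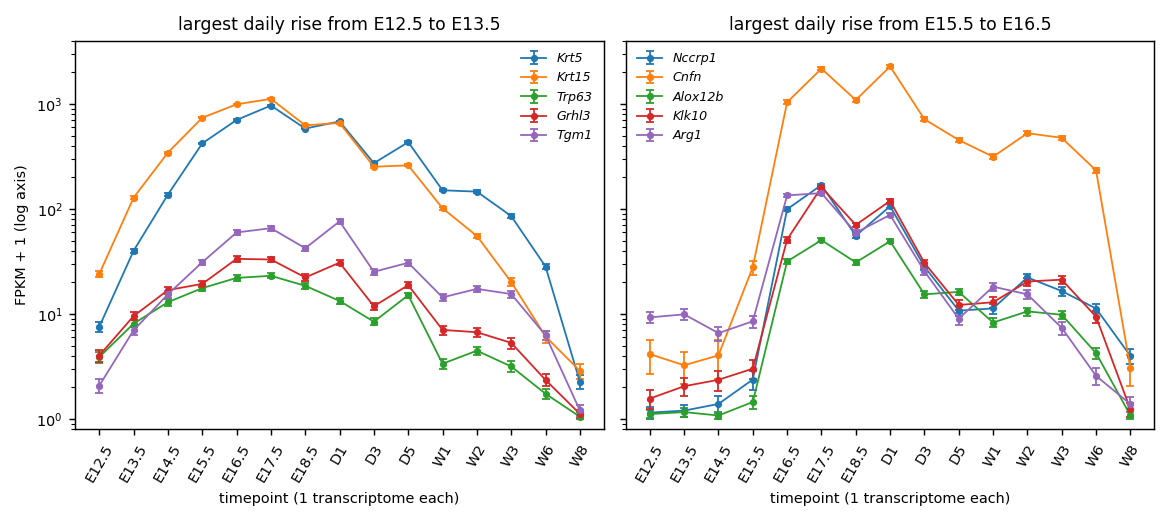
FPKM + 1 on a log axis at the 15 timepoints (1 transcriptome each), with the deposited confidence bounds as error bars, for 5 genes with the largest daily step between E12.5 and E13.5 (left) and 5 with it between E15.5 and E16.5 (right). The left genes climb over several days, whereas Nccrp1 goes from 1.38 to 98.4 FPKM and Cnfn from 26.9 to 1038 in 1 day.

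Several genes changed by a large factor in the 1 day after E15.5. Nccrp1, an F-box related protein of squamous epithelia, was at 0.149 FPKM at E12.5, 0.201 at E13.5, 0.39 at E14.5, 1.38 at E15.5, 98.4 at E16.5, 168 at E17.5, 54.5 at E18.5, 105 at D1, 27.3 at D3, 9.76 at D5, 10.3 at W1, 21.3 at W2, 15.54 at W3, 10.3 at W6 and 2.99 at W8. 2300002M23Rik was at 0.144 FPKM at E12.5, 0 at E13.5, 0.335 at E14.5, 3.4 at E15.5, 97.2 at E16.5, 119 at E17.5, 63.2 at E18.5, 114 at D1, 20.9 at D3, 8.08 at D5, 8.68 at W1, 11.9 at W2, 2.22 at W3, 0.454 at W6 and 0.108 at W8, as a sum of 4 entries. Both were lower at E18.5 than on the days beside it. Arg1, the arginase that makes ornithine, was already present before, at 8.28 FPKM at E12.5, 8.92 at E13.5, 5.57 at E14.5 and 7.52 at E15.5, then at 134 at E16.5, 141 at E17.5, 58.3 at E18.5, 86.8 at D1, 24.6 at D3, 8.01 at D5, 17.2 at W1, 14.4 at W2, 6.38 at W3, 1.57 at W6 and 0.386 at W8. Cnfn, a cornified envelope component, went from 26.9 FPKM at E15.5 to 1038 at E16.5, Klk10, a kallikrein, from 2.01 to 50.1, and Alox12b, a lipoxygenase of the skin lipid barrier, from 0.452 to 30.7. Hopx, a homeodomain cofactor of differentiation, went from 20.5 to 166 FPKM and Gjb2, the gap junction protein connexin 26, from 2.59 to 24.2.

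Proteases with a high score peaked on different days. Klk14, a trypsin-like kallikrein, was at 2.01 FPKM at E12.5, 0.801 at E13.5, 0.765 at E14.5, 0.844 at E15.5, 10.99 at E16.5, 79.5 at E17.5, 29.0 at E18.5, 36.7 at D1, 3.71 at D3, 1.4 at D5, 3.64 at W1, 10.8 at W2, 3.6 at W3, 1.75 at W6 and 0.0278 at W8. Tmprss11bnl, of the transmembrane serine proteases, was at 0.0242 FPKM at E12.5, 0.131 at E13.5, 0.676 at E14.5, 4.32 at E15.5, 12.9 at E16.5, 6.72 at E17.5, 2.64 at E18.5, 1.31 at D1, 0.956 at D3, 0.249 at D5, 0.238 at W1, 0.837 at W2, 0.243 at W3, 0.0417 at W6 and 0 at W8. Klk14 was thus highest at E17.5, a day after Tmprss11bnl. Pbp2, related to phosphatidylethanolamine binding proteins, was confined more sharply, with 0.143 FPKM at E12.5, 0 at E13.5, 0.166 at E14.5, 0.202 at E15.5, 11.8 at E16.5, 13.3 at E17.5, 1.77 at E18.5, 2.89 at D1, 0.847 at D3, 0.579 at D5, 0.515 at W1, 0.0942 at W2, 0.159 at W3, 0.041 at W6 and 0.0855 at W8. Bglap2, an osteocalcin gene, was at 0 FPKM at E12.5, E13.5 and E14.5, 1.42 at E15.5, 5.13 at E16.5, 22.4 at E17.5, 6.97 at E18.5, 9.83 at D1, 1.48 at D3, 0 at D5, 0.224 at W1, 2.04 at W2, 0.871 at W3 and 0 at W6 and W8. It followed the time course of the Sprr genes although its protein is known from bone.

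Among surface and calcium-binding proteins, the level at the start differed from gene to gene. Anxa1, annexin A1, was at 54.9 FPKM at E12.5, 101 at E13.5, 149.7 at E14.5, 339 at E15.5, 1009 at E16.5, 767 at E17.5, 498 at E18.5, 413 at D1, 175 at D3, 159 at D5, 101 at W1, 151 at W2, 114 at W3, 51.1 at W6 and 26.9 at W8. S100a7a, a psoriasin-related S100 protein, was at 0.81 FPKM at E12.5, 0.304 at E13.5, 0.501 at E14.5, 0.444 at E15.5, 18.49 at E16.5, 31.3 at E17.5, 18.8 at E18.5, 17.8 at D1, 4.36 at D3, 1.44 at D5, 4.03 at W1, 3.77 at W2, 1.62 at W3, 0.865 at W6 and 0.286 at W8. Lypd2, a Ly6 type surface protein, was at 12.4 FPKM at E12.5, 30.0 at E13.5, 55.0 at E14.5, 114 at E15.5, 175 at E16.5, 244 at E17.5, 119 at E18.5, 221 at D1, 40.7 at D3, 34.1 at D5, 21.6 at W1, 13.3 at W2, 3.84 at W3, 3.43 at W6 and 0.534 at W8. In Lypd2 the 3 highest values were those of E16.5, E17.5 and D1, with E18.5 below them. Upk3bl, an uroplakin-like membrane protein, was at 4.48 FPKM at E12.5, 13.1 at E13.5, 21.4 at E14.5, 54.9 at E15.5, 90.3 at E16.5, 67.0 at E17.5, 34.7 at E18.5, 33.4 at D1, 10.9 at D3, 2.87 at D5, 1.99 at W1, 1.32 at W2, 0.508 at W3, 0.212 at W6 and 0.11 at W8. Its decline was unbroken after E16.5, and Upk2, an uroplakin of the urothelium, peaked a day earlier still, at E15.5 (32.1 FPKM).

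The gasdermins, pore-forming proteins of epithelia, had a time course of their own. Gsdmc2 was at 0.139 FPKM at E12.5, 0.61 at E13.5, 2.56 at E14.5, 11.96 at E15.5, 45.4 at E16.5, 61.1 at E17.5, 67.4 at E18.5, 13.8 at D1, 1.78 at D3, 0.352 at D5, 1.06 at W1, 5.38 at W2, 17.1 at W3, 8.18 at W6 and 11.9 at W8. Gsdmc3 was at 0.0804 FPKM at E12.5, 0.439 at E13.5, 0.935 at E14.5, 4.19 at E15.5, 12.53 at E16.5, 17.1 at E17.5, 14.4 at E18.5, 2.23 at D1, 0.661 at D3, 0.507 at D5, 0.133 at W1, 1.03 at W2, 3.01 at W3, 1.62 at W6 and 3.51 at W8. Both were still high at E18.5, low from D3 to W1, and present again from W3. Gsdmc4 had 13.2 FPKM at E18.5 and 8.70 at W3, both above its 4.40 at E16.5 and 6.16 at E17.5. The 3 genes are close copies beside each other on chromosome 15, so reads may have been divided between them.

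By the choice of the genes, the label transient held for the mean of D3, D5 and W1, and not for every gene thereafter. In 7 of the 100 a value from W2 to W8 lay above the late fetal mean FPKM. Gsta2, a glutathione transferase, was at 27.1 FPKM at E16.5, 40.7 at E17.5, 69.9 at W3 and 68.8 at W6. Fcgbp, a mucus protein that binds the Fc part of IgG, was at 8.98 FPKM at E16.5, 10.4 at E17.5, 35.8 at W3 and 39.7 at W6. The others were Krt6b, Gsdmc4, Rnu1a1 and the unnamed loci LOC102640231 and LOC102640259.

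**Figure D3:**
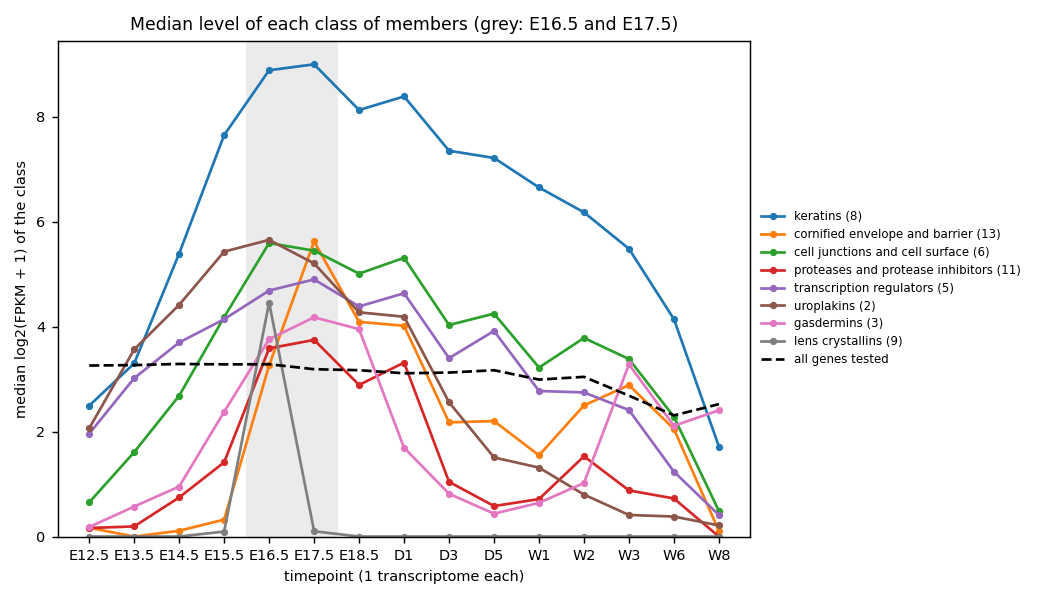
Median log2(FPKM + 1) of 8 classes of the 100 genes (number of genes in brackets) and of all 16902 genes tested at the 15 timepoints, 1 transcriptome each, with E16.5 and E17.5 in grey. Most classes are high from E16.5 to D1, the gasdermins are low at D1 and up again at W3, and the lens crystallins have a single peak at E16.5.

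E18.5 and D1 did not enter the choice, and the 80 genes other than crystallins and unnamed or small RNA loci stayed high there. The crystallins and the unnamed or small RNA loci, set aside with values seen, had a median of 0 FPKM at both ages. In 66 of the 80 (82.5%) both values lay above each of W2, W3, W6 and W8, against 41.6% of all 16902 genes tested. The limits are unlike, since the 80 had to reach 5 FPKM at any age and the genes tested only 1 FPKM. E18.5 was often below its neighbours, with a value under those of both E17.5 and D1 in 45 of the 80 (56.2%), against 27.2% of all genes; E17.5 was used in the choice, which favours high values there. Between the 2 unused transcriptomes, D1 lay above E18.5 beyond both confidence bounds in 37 of the 80 (46.2%, against 15.2% of all genes) and below it in 19 (23.8%, against 26.2%). By value alone, D1 was the higher of the 2 in 46 of the 80 (57.5%, against 41.3% of all genes). With median-ratio scaling it was the higher in 51 of the 80 (63.8%, against 51.8%). The summed level of the squamous marker list, to which 11 of the 100 genes belong, was 14953 FPKM at E17.5, 12552 at E18.5 and 17828 at D1. Markers of other cells were also high at D1, with summed levels of 322 FPKM at E18.5, 2098 at D1 and 464 at D3 for the hepatocyte list, and 68.3, 168 and 41.0 FPKM for the granulocyte list. The part of these cells, and of the share of forestomach in the tissue taken, in the values at D1 was not tested.

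W8 was the other transcriptome that stood apart. At W8, 47 of the 80 genes were below 1 FPKM, against 31 at W6, 17 at W3 and 13 at W2, and 63 of the 80 (78.8%) were lower at W8 than at W6, against 34.3% of all genes. The share of all genes below 1 FPKM was not counted. Over all genes tested, the median log2(FPKM + 1) was 3.04 at W2, 2.68 at W3, 2.31 at W6 and 2.52 at W8. The summed squamous list was at 5860 FPKM at W2, 5318 at W3, 2441 at W6 and 162 at W8. Basal and upper-layer genes were low together at W8, with Krt5 at 1.26 FPKM, Krt4 at 2.74, Krt13 at 5.96 and Trp63 at 0.0511. Krt7, a keratin of simple epithelia, was at 49.6 FPKM, also below its 99.3 at W6. Not every gene of the squamous programme was that low. Sprr1a was at 46.7 FPKM at W8 and Sfn at 42.9, and the cornified envelope list summed to 2231 FPKM, against 6996 at W6. With 1 transcriptome, age and the part of the stomach taken cannot be told apart at W8.

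**Figure D4:**
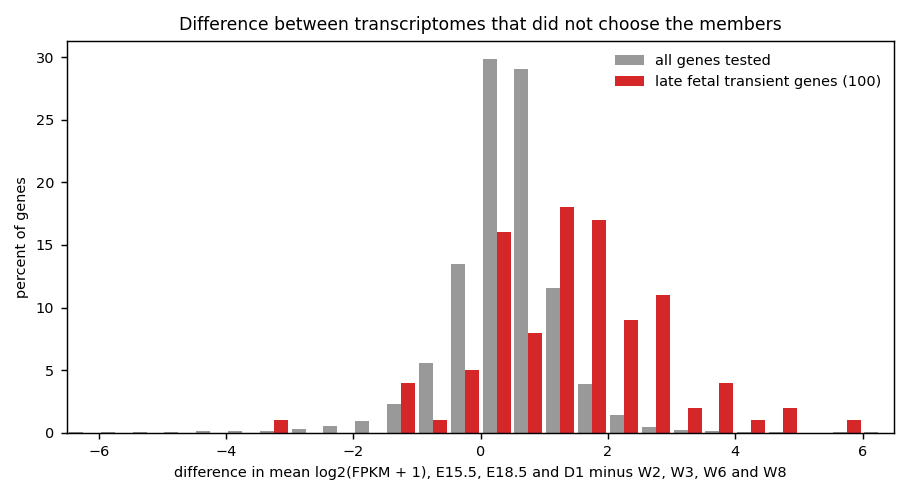
Share of genes by the difference in mean log2(FPKM + 1) between 3 transcriptomes around the late fetal window (E15.5, E18.5 and D1) and 4 later ones (W2, W3, W6 and W8), in steps of 0.5, for all 16902 genes tested (grey) and the 100 late fetal genes (red). The median is 0.45 over all genes and 1.40 over the 100, and both distributions overlap widely.

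A test was possible on the 7 transcriptomes that did not choose the genes. It compared E15.5, E18.5 and D1 with W2, W3, W6 and W8 on log2(FPKM + 1) with limma, Benjamini-Hochberg adjusted over the 16902 genes that reached 1 FPKM at any age, and timepoints served as replicates, so the spread includes change with age. Of the 100 genes, 34 were higher in the first group at an adjusted p under 0.05 and 0 were lower, while 28.0% of all genes tested were higher. The share among the 100 was near this background. After scaling the shares lay further apart. They were 26 of the 100 against 10.98% of all genes with median-ratio scaling and 28 against 11.7% with quantile normalization. In other settings they lay close, with 39 against 34.3% at the FPKM limit of 5 and 34 against 27.6% with a mean trend. Leaving out W2 gave 43 against 41.0%, and leaving out D1 gave 29 against 26.9%. The counts of the 100 and of all genes rested on single transcriptomes. Without E15.5, 18 of the 100 and 2.21% of all genes were called higher. Without E18.5 the values were 2 and 0.0296%, without W3 2 and 0.195%, without W6 2 and 0.0887%, and without W8 3 and 0.16%. With no limit on FPKM they were 5 and 0.664%. At an unadjusted p under 0.05, 47 of the 100 were higher. The share of all genes at that limit was not counted, so this number has no background beside it. All 3 transcriptomes of the first group lay above all 4 later ones in 37 of the 100 and in 37.3% of all genes. The median difference was 1.40 over the 100 and 0.45 over all genes, and it was above 0 in 85 of the 100 and in 75.9% of all genes. Scaling by the median ratio set the median of all genes to 0.00 and left that of the 100 at 1.01. Pancreatic acinar genes moved with the same groups, with a summed 292 to 1557 FPKM in the first group and 7695 to 129350 in the second, and their part in the result was not tested.

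Single genes in this test differed widely. Krt15 had the largest difference, 5.83 ± 0.94 (SE, limma adjusted p = 0.0208), followed by Lypd2 with 4.96 ± 0.69 (limma adjusted p = 0.0166) and Upk3bl with 4.80 ± 0.30 (limma adjusted p = 0.00213). The first group lay above the second in each, though Krt15 was called in 2 and Lypd2 in 4 of the 7 fits that left out 1 transcriptome. Upk3bl and Gm5483, a stefin-like protease inhibitor (3.52 ± 0.27, limma adjusted p = 0.00416), were the only genes of the 100 called in all 7. Gm5483 and its neighbour Stfa2l1 had the same values at D3, D5 and W1 (0.937, 0.292 and 0.615 FPKM), so reads of these copies may not have been told apart. Of the regulators, Trp63 (2.86 ± 0.48, limma adjusted p = 0.0226) and Grhl3 (2.93 ± 0.61, limma adjusted p = 0.0283) were higher in the first group, as was the desmosomal cadherin Dsg3 (2.88 ± 0.54, limma adjusted p = 0.0261). Each of these 3 was called in some and not all of the fits that left out 1 transcriptome.

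Among the other high-scoring genes, Anxa1 (2.54 ± 0.57, limma adjusted p = 0.0301), Tmprss11bnl (1.52 ± 0.33, limma adjusted p = 0.0297) and Bglap2 (1.94 ± 0.61, limma adjusted p = 0.0473) were called higher. Bglap2 was not called with the pseudocount of 0.1 (limma adjusted p = 0.0693), median-ratio scaling (limma adjusted p = 0.0826), quantile normalization (limma adjusted p = 0.0772) or no FPKM limit (limma adjusted p = 0.113), and kept its call in 1 of the 7 fits that left out a transcriptome. Anxa1 and Tmprss11bnl each kept theirs in 2 of them. Krt13 (3.86 ± 1.64, limma adjusted p = 0.0973) and Sprr1a (0.88 ± 1.04, limma adjusted p = 0.497) were not. The lowest differences were -3.34 ± 2.50 for Rnu1a1 (limma adjusted p = 0.298), -1.27 ± 1.16 for Fcgbp (limma adjusted p = 0.386) and -1.25 ± 0.78 for Gsta2 (limma adjusted p = 0.219), none of which passed. By class, beside the 28.0% of all genes, the test called 4 of 5 transcription regulators, 4 of 6 junction and surface genes, 4 of 7 S100 proteins and annexins, 5 of 11 proteases and inhibitors, both uroplakins, 2 of 8 keratins, 2 of 13 envelope and barrier genes, 10 of 25 genes of other roles, 1 of 9 crystallins, 0 of 3 gasdermins and 0 of 11 unnamed or small RNA loci. The classes were made with values in view and were not tested. In the squamous list as a whole, 5 of 23 genes were higher and 0 lower, a share below the 28.0% of all genes, with a median difference of 1.63. In the cornified envelope list 2 of 44 were higher and 2 lower, again below that share, with a median of 0.38. Of the granulocyte list 5 of 12 were higher and 0 lower, among them S100a9 (2.28 ± 0.73, limma adjusted p = 0.0491), while Ltf, lactoferrin (1.83 ± 1.10, limma adjusted p = 0.206), did not pass. S100a9 was not called with the pseudocount of 0.1 (limma adjusted p = 0.0664), median-ratio scaling (limma adjusted p = 0.107), quantile normalization (limma adjusted p = 0.0879) or no FPKM limit (limma adjusted p = 0.119), and kept its call in 1 of the 7 fits that left out a transcriptome. The lipid barrier list had 0 of 15 called, with Alox12b at 1.48 ± 1.35 (limma adjusted p = 0.387). S100a9 and Ltf peaked at D1, at 61.8 and 42.5 FPKM, and are also made by epithelium.

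The 9 lens crystallins, structural proteins of the eye lens, were high in the E16.5 transcriptome. Cryaa, alpha A crystallin, was at 0.0549 FPKM at E12.5, 0.08 at E13.5, 0.0637 at E14.5, 0.0581 at E15.5, 35.8 at E16.5, 0.749 at E17.5, 0.123 at E18.5, 0.175 at D1, 0 at D3, 0.102 at D5, 0 at W1, W2, W3 and W6 and 0.0981 at W8. The deposited bounds at E16.5 were 32.1 to 39.4 FPKM. At that age Cryba1 was at 25.2 FPKM, Crybb3 at 22.8, Cryge at 21.6, Cryga at 20.9, Crybb1 at 19.1, Crygd at 9.88, Crygf at 6.38 and Crygb at 6.28. Crybb1 and Crybb3 were present at low levels elsewhere, up to 5.56 FPKM at E17.5 and 6.14 at W8, and each of the other 7 stayed below 1 FPKM at every other age. Since the score averages E16.5 and E17.5, a gene high at E16.5 alone can reach the 100.

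A list of 22 lens genes, written after these values had been seen, showed how far this went. Of them, 19 had their highest value at E16.5, and in 15 the lower bound there was above the upper bound at all other ages. The summed level of the list was 197.9 FPKM at E16.5 and 3.37 to 12.3 at the other 14 ages. Lens genes outside the 100 took part, with 7.81 FPKM at E16.5 for Cryba4, 5.04 for Crygc and 2.38 for Lim2, a lens fibre membrane protein. Crybb2 and Dnase2b were listed at 0 there, and Mip, the lens aquaporin, was at 0.537. The signal was thus seen in 1 transcriptome, with both neighbouring days far below it. Whether eye tissue or its RNA entered that sample was not tested.

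**Figure D5:**
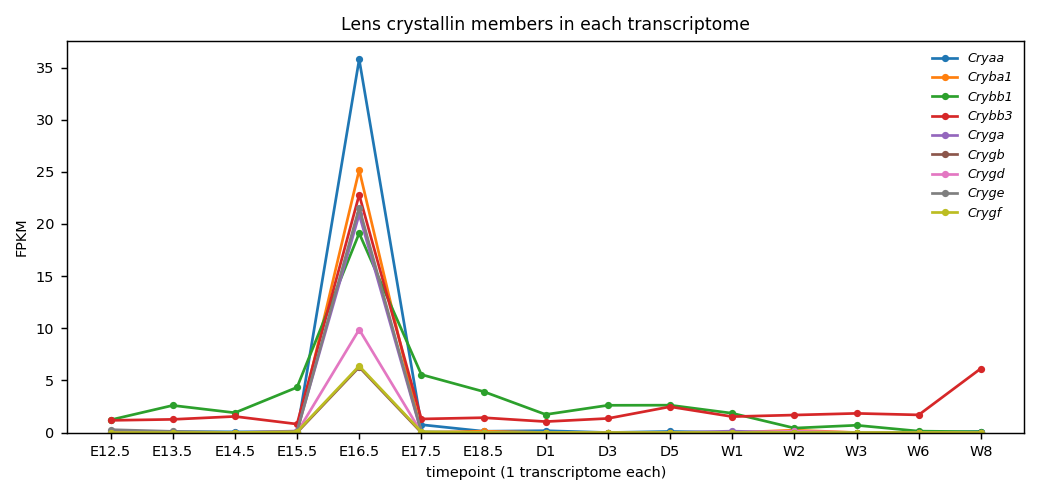
FPKM of the 9 lens crystallin genes at the 15 timepoints, 1 transcriptome each. All 9 stand highest at E16.5, from 6.28 FPKM for Crygb to 35.8 for Cryaa, and only Crybb1 and Crybb3 exceed 1 FPKM at other ages.

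The highest score of all belonged to LOC102639873, an unnamed locus of chromosome 15 (88814032 to 88814257), which was listed at 1038 FPKM at E17.5 and at 0 at all other 14 ages. Its bounds there were 0 to 2509 FPKM. If the bounds are Poisson, the value stands for 1.99 fragments on a short locus. LOC102636155 was at 0 FPKM at E12.5, 8.24 at E13.5, 0 at E14.5, 19.3 at E15.5, 26.5 at E16.5, 32.0 at E17.5, 0 at E18.5 and D1, 10.4 at D3, 0 at D5 and W1, 10.01 at W2, 0 at W3, 4.13 at W6 and 0 at W8, and its 2 late fetal values stand for 8 fragments together. All 11 unnamed or small RNA loci had between 0.5 and 8 such fragments at E16.5 and E17.5 together. Among the other 89 genes, Sprr4, with 24.4 FPKM at E17.5, 16.49 at E18.5 and 5 fragments, was the only one under 10. At this depth the bounds of 11 of these 12 genes did not separate either late fetal value from the compared ones. The exception, LOC102636579, had 5 fragments at E17.5 and was listed at 0 at all other ages.

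At the limit of 100, neighbouring scores were close. The last 3 genes inside were Plcd1, a phospholipase C, with a score of 1.34, Gsta2 with 1.32 and LOC102635752 with 1.32. The first 3 outside were Klk13, 2310007B03Rik and Crygn, each with 1.32. Klk13, a kallikrein with 17.1 FPKM at E16.5 and 49.5 at E17.5, had the same time course as Klk10 and Klk12 inside the limit, with 43.4 at D1 and 0.249 at W8, and Crygn was a further lens crystallin high at E16.5, at 6.32 FPKM.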

How the data were processed

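The authors deposited 1 gene table per timepoint with FPKM values and lower and upper confidence bounds. The published methods name HISAT2, StringTie and a GENCODE annotation, and the submitters' processing notes name Bowtie 0.12.2, FastQC and GRCm38.p2, whereas the tables have the layout of Cufflinks with RefSeq-style entries, and which pipeline made them is not given in the sources used here. Entries of a symbol were summed. Starts were counted from 1. Timepoints were grouped by their labels. The members and the gene lists were chosen with earlier results of these data known. limma 3.58.1 in R 4.3.3, tried on simulated data, compared E15.5, E18.5 and D1 with W2 to W8 on log2(FPKM + 1), and variances of 0 were offset. The 20 highest scores were to be given in full, then 3 genes on each side of the limit, up to 4 members per list and the 3 largest and 3 smallest differences. Others were named with their values seen. Fragments were estimated as the square of 2 times the value over the distance to its upper bound. Total read depth is unknown. Alternatives covered pseudocounts, FPKM limits, scaling, a mean trend and left-out transcriptomes. Python 3.11.15, NumPy 2.4.6, pandas 2.3.3 and matplotlib 3.10.9 were used.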

Additional observations from a re-analysis of the deposited data

Results flagged for a closer look

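In 3 genes, 1 of the 4 transcriptomes W2, W3, W6 and W8 lay far from the other 3, with a gap above Dixon's critical share of the whole range on the log2(FPKM + 1) scale. Chance flags about 1 in 20 groups of 4. In Cryaa the gap was 1 of the range, since W8 was at 0.0981 FPKM and the others were listed at 0. In Rnu1a1 it was 0.881, since W6 was listed at 0. In Sprr2h it was 0.836, with W2 at 0.863 FPKM and the others at 0.107 or 0.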

How the results depend on the processing

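The count of 34 genes of the 100 that were higher in E15.5, E18.5 and D1 was 26 to 43 under the other scalings, the pseudocount of 0.1, the FPKM limit of 5, the mean trend and the later group without W2. Between 10.98% and 41.0% of all genes were called higher in these settings. The count among the 100 was 5 with no FPKM limit, and 2 to 43 when 1 transcriptome was left out. Of all genes, 4734 were higher, 1844 with median-ratio scaling, 1993 with quantile normalization and 191 with no FPKM limit, and 5 to 6932 when 1 transcriptome was left out. The median difference of the 100 stayed above 0 in every alternative, from 1.01 to 1.88. Without the crystallins and the unnamed or small RNA loci, chosen after seeing the data, 33 of 80 genes were higher, with a median of 1.59. Of the 100 genes, 77 to 99 were kept when the score was built in other ways. All 9 crystallins were lost with E17.5 alone and 9 of the 11 unnamed or small RNA loci with E16.5 alone, and 88 genes were kept when at least 10 fragments were asked for.

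Among single genes, Sprr2i changed sign with the pseudocount of 0.1 (-0.38), median-ratio scaling (-0.18) and quantile normalization (-0.14), and ranged from -0.53 to 1.48 when 1 transcriptome was left out. Gsdmc4 changed sign with median-ratio scaling (-0.35), quantile normalization (-0.37) and the later group without W2 (-0.32), with a range from -0.64 to 0.56. LOC102636155 had 0.66 in the later group without W2 and ranged from -1.45 to 0.72. The cause was not tested. No paired analysis was possible because the groups compared were different ages with 1 transcriptome each. Confidence bounds cover counting error only, and no replicate of a timepoint was analysed here.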
